A study of Mus musculus with 12 samples.

Results

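A set of 9 genes of the blood-testis barrier was followed through adult life in the mouse testis, namely Cldn3, Cldn11, Ocln, Tjp1, F11r, Jam2, Jam3, Gja1 and Cxadr. They were chosen by gene symbol, as the membrane proteins and the scaffold of the tight and gap junctions between Sertoli cells, and they make up 9 of the 24516 genes in the table of the series. A gene was the sum of the assembled transcripts that carried its symbol and matched its annotated model, lay within it, shared a splice junction with it or overlapped its exons on the same strand. This gave 19 transcripts for the 9 genes, of 60321 such transcripts among 71967 assembled. The testes came from wild-type C57BL/6 males at 3, 6, 12 and 18 months of age (3M, 6M, 12M and 18M), with 3 libraries per age and no treatment, transgene or mutation in any group. Total RNA of whole testis was depleted of ribosomal RNA and sequenced without strand information. Whether the mice of an age shared a litter or a cage is not given in the sources used here, so the p-values measure only the spread between these 3 samples per age. The question was which of the 9 genes differed with age, by how much, and in which libraries.

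Neighbouring Sertoli cells, the supporting cells of the seminiferous epithelium, join near the base of the tubule by tight junctions that are intermingled with actin-rich adherens junctions (the ectoplasmic specialization), desmosomes and gap junctions. These junctions form the blood-testis barrier, which keeps meiotic and haploid germ cells behind a closed compartment, and they open and reform as early spermatocytes pass through. Claudins seal the space between the cells, the scaffold proteins beneath them tie the strands to actin, and several junction proteins are also carried by germ cells. In whole-testis RNA, fewer cells of a type and less RNA per cell cannot be told apart.

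Cldn3, Cldn11, F11r and Gja1 had 1 transcript each, while Tjp1, Jam2, Ocln, Jam3 and Cxadr were each divided among transcripts with alternative exons. The junctions of Tjp1, Jam2 and Ocln are printed because transcript results turn on them. The sequences are GENCODE vM21 transcripts on GRCm38 (the mm10 build of the files), 5′ to 3′ on the strand of the gene, with 15 bases on each side of a junction. In the first line, the capitals are exon 20 of Tjp1 at chr7:65314093-65314332, on the minus strand, 240 coding bases or 80 codons between lower-case flanks. In the second line, the capitals are the start of the exon that follows when this exon is skipped. In the other lines, the capitals are the end of an alternative first or upstream exon, and the lower-case bases are the start of the exon that both forms share.
Tjp1 with the exon: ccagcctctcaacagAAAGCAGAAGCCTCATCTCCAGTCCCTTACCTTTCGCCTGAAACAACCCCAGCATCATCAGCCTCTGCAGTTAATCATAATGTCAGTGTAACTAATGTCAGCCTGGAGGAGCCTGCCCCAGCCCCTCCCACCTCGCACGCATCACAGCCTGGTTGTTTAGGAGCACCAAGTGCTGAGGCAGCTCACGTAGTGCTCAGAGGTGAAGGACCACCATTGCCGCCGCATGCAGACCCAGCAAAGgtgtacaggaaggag
Tjp1 without the exon: ccagcctctcaacagGTGTACAGGAAGGAG
Tjp1 downstream first exon (chr7:65370810-65371015): GCCGCGGCCGCTAAGagcacagcaatggag
Tjp1 exon of the upstream starts (chr7:65513199-65513331): TTCTGTGAACTCACTagcacagcaatggag
Jam2 upstream first exon (chr16:84774386-84774553): TCGTCGCCCTGGACTatcataaggcaaatg
Jam2 downstream first exon (chr16:84793558-84793730): GTCGGAAGCATTCAGatcataaggcaaatg
Ocln upstream first exon (chr13:100552564-100552718): CTAGGGGCTCGGCAGgttcgcttatcttgg
Ocln downstream first exon (chr13:100552387-100552498): ATTCCGGCCGCCAAGgttcgcttatcttgg

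The libraries held 50924104 to 71803379 estimated reads each. Among the markers of the cell types, 15 of 16 Sertoli genes and 8 of 8 spermatid genes were above 0 in every library (Amh was at 0 in 2 libraries). Of the 7 epididymis markers, 2 were at 0 in all 12. Rnase10 and Crisp1 of that list were above 0 in every library, at means of 2.41 and 0.0987 FPKM. Lcn8, Lcn9 and Cst11 were at 0 in 9, 8 and 5 libraries. Library 6M-3 (the third mouse of 6M) stood apart from the other 11. Its summed level of the 16 Sertoli markers was 1679 CPM (read counts scaled to library size after TMM normalization) against 1289 to 1379 CPM in the others, and 11 of the 16 had their highest value there. Its summed Leydig markers were also the highest, at 1382 CPM against 586.9 to 1095 CPM, but only 2 of the 7 had their highest value there. Insl3 alone held 977.8 CPM of that sum in 6M-3, against 419.9 to 619 CPM in the other libraries. The summed spermatid markers of 6M-3 were the lowest, at 13793 CPM against 14423 to 20818 CPM. Prm1, Prm2, Tnp1 and Tnp2 were each lowest in that library, while Acrv1, Tssk1, Spaca1 and Odf1 were not.

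All 9 genes were tested at every age, and none passed an adjusted p of 0.05 in edgeR's quasi-likelihood test. The slope of the counts on age in months was called for 0 of 9 members, where 0.41% of 18545 genes were called. The comparison of 3M with 18M called 0 of 9, against 0.0662% of 18130 genes, and the test of any difference among the 4 ages called 0 of 9, against 0.0917% of 18545. At an unadjusted p of 0.05 or less, 1 member passed each of these tests, and it was Cldn3 each time. The shares of all genes at that threshold were 17.5%, 13.5% and 10.3%. By DESeq2 the slope called 1 of 9, again Cldn3, where that tool called 3.45% of 16485 genes. From 3M to 18M DESeq2 called 0 of 9, against 1.47% of all genes, and 1 of 9 at an unadjusted p of 0.05 or less, against 10.2%. For any difference among ages it called 0 of 9, against 2.07%, and 1 of 9 unadjusted, against 9.71%.

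The 9 genes covered a wide range of levels per length. In mean FPKM (fragments scaled by transcript length and library size) over the 12 libraries, the order was Cldn3 at 42.1, Cldn11 at 27.7, Jam3 at 15.3, Tjp1 at 11.7, Gja1 at 11.4, F11r at 8.13, Jam2 at 4.07, Ocln at 1.61 and Cxadr at 0.351. Among 22685 genes above 0, this placed Cldn3 at rank 2063 and Cxadr at rank 15690. Each gene was above the next one down in 12 of 12 libraries, except that Tjp1 was above Gja1 in 8 of 12. The FPKM ranges over libraries overlapped for Cldn3 and Cldn11, for Tjp1 and Gja1, and for Gja1 and F11r. Tjp1 and Gja1 are therefore neighbours that do not differ beyond their spread.

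**Figure D1:**
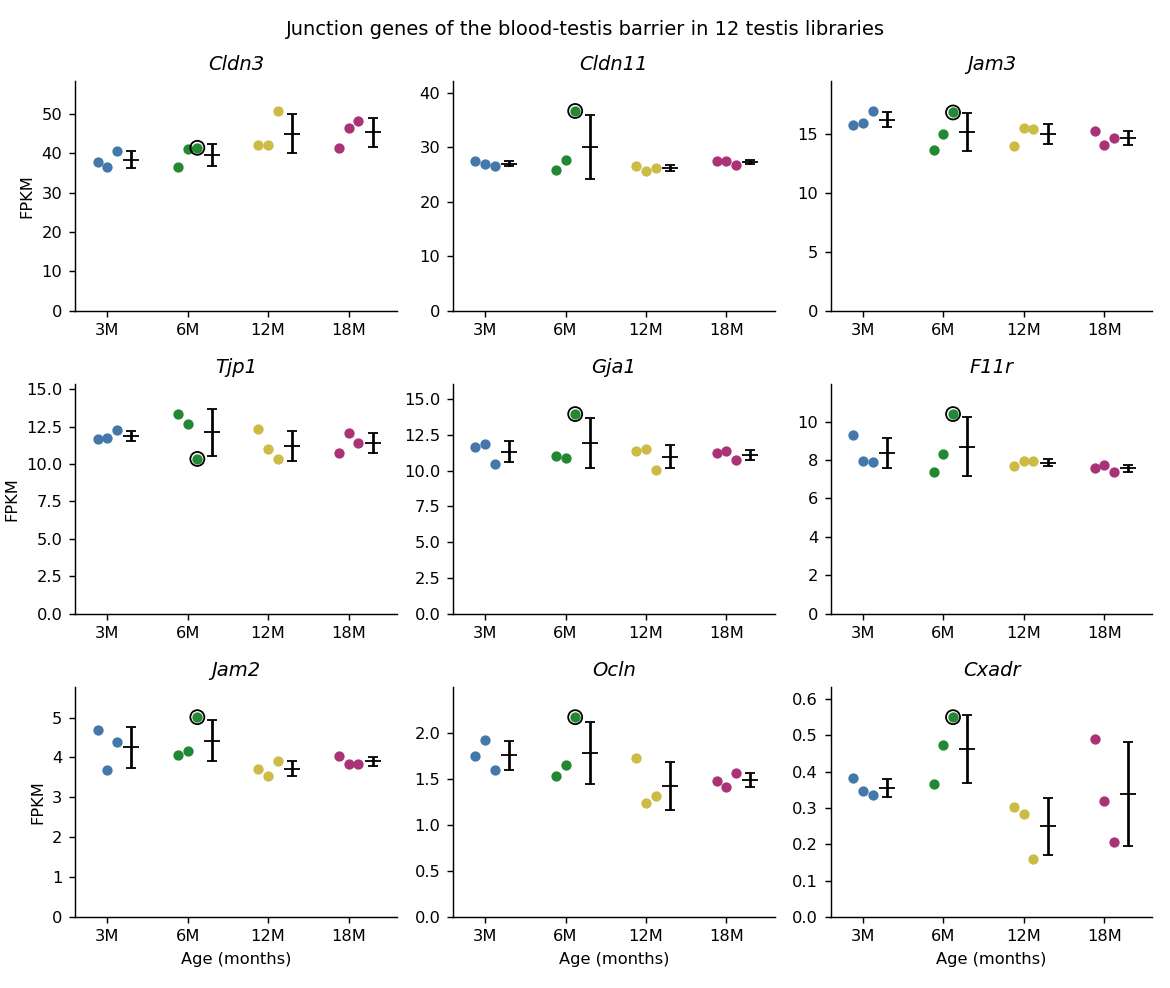
FPKM (vertical axis, from 0) of each of the 9 junction genes in the 12 libraries, by age (horizontal axis). Points are libraries, the bar beside them is the mean ± SD of 3 libraries, and the ringed point is library 6M-3, which is the highest of the 12 for Cldn11, Gja1, F11r, Jam2, Ocln and Cxadr.

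Claudin-3 and claudin-11 are the sealing proteins of the list. Cldn3, whose transcription in Sertoli cells is known to respond to androgen, is a single-exon gene at chr5:134986214-134987476 on the plus strand. Its 3M libraries stood at 37.8, 36.5 and 40.7 FPKM, the 6M libraries at 36.5, 41.1 and 41.4, the 12M libraries at 42.1, 42.2 and 50.8, and the 18M libraries at 41.3, 46.5 and 48.2. The means were 38.3 ± 2.16, 39.7 ± 2.77, 45.0 ± 4.97 and 45.3 ± 3.61 FPKM (SD, n = 3 per age), higher at each step, a pattern that 5.81% of genes in the slope test had. All 3 libraries of 18M lay above all 3 of 3M, also in CPM, as for 9.74% of genes.

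In CPM, the Cldn3 mean was 54.4 ± 3.46 at 3M and 65.0 ± 5.68 at 18M (SD, n = 3), a 1.20-fold ratio in the fit (95% confidence interval 1.05 to 1.36). The log2 change was 0.26 ± 0.080 (SE), with an adjusted p of 0.299 in edgeR over all genes. The slope on age over 12 libraries amounted to a log2 change of 0.29 over 15 months (95% confidence interval 0.11 to 0.47), with an unadjusted p of 0.00402 and an adjusted p of 0.136 in edgeR. DESeq2 gave the same slope an adjusted p of 0.0368. Over all alternatives the adjusted p of this slope ranged from 0.0368 to 0.321, and no other alternative passed 0.05.

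The summed markers of some other cell types moved with Cldn3. Its highest libraries, 12M-3, 18M-3 and 18M-2 with 50.8, 48.2 and 46.5 FPKM, were in that order also the highest of the 12 in summed spermatid markers, at 20818, 18452 and 16857 CPM. The next highest spermatid sum was 16305 CPM in 3M-1, which held 37.8 FPKM of Cldn3 in a range of 36.5 to 50.8 FPKM. Over the 12 libraries, Pearson's r of Cldn3 to the spermatid sum was 0.84 (0.87 without 6M-3). The spermatid sums spanned 14551 to 16305 CPM in the 3M libraries, 13793 to 15245 CPM in those of 6M, 15492 to 20818 CPM in those of 12M and 15428 to 18452 CPM in those of 18M. Of the 8 spermatid markers, 4 passed an unadjusted p of 0.05 on the slope upward, and 0 passed the adjusted one. The shares of all genes, in either direction, were 17.5% and 0.41%. The Leydig and macrophage sums ran the other way, with Pearson's r to Cldn3 over 12 libraries of -0.70 and -0.75 (-0.84 and -0.80 without 6M-3), and the macrophage sums were 58.4 to 62.1 CPM at 3M and 48.9 to 64.7 CPM at 18M. The Leydig sums by age are given at the end. For the Sertoli sum r was -0.067 (0.14 without 6M-3), for the peritubular myoid sum 0.64 (0.64) and for the endothelial sum -0.54 (-0.53). Actg2 alone held 246.3 to 305.4 CPM of the myoid sum, which was 340.6 to 380.8 CPM. Of the 6 myoid markers, 5 had a negative slope, beside 50.6% of all genes. The part of these cell types in the Cldn3 result was not tested. Of the 1263 exonic bases of Cldn3, 44 overlap the antisense gene Wbscr25, whose reads cannot be told apart without strand.

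Cldn11, the main claudin of the Sertoli cell junction and one without which male mice are sterile, lies at chr3:31149920-31164326 on the plus strand and had 1 transcript of 3 exons. Its 3M libraries stood at 27.6, 27.0 and 26.6 FPKM, the 12M libraries at 26.7, 25.7 and 26.3, and the 18M libraries at 27.6, 27.5 and 26.9. These 9 libraries lay close together, and so did 6M-1 and 6M-2 at 25.8 and 27.7 FPKM. The remaining one, 6M-3, held 36.7 FPKM, which made the 6M mean 30.1 ± 5.83 (SD, n = 3), against 26.7 for the other 6M libraries. From 3M to 18M the log2 change was 0.03 (95% confidence interval -0.08 to 0.14, adjusted p of 0.809 in edgeR). The slope, as a log2 change over 15 months, was -0.04 (95% confidence interval -0.24 to 0.16). Without 6M-3 the slope was 0.0016 per month on the log2 scale with an SE of 0.0028, where it had been -0.0028 with an SE of 0.0062, and the adjusted p in edgeR was 0.802.

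Set against the Sertoli markers, Cldn11 held 41.3 to 45.0 reads per 1000 reads of the 16 Sertoli markers in all 12 libraries, 6M-3 included at 45.0. The coefficient of variation over libraries was 2.59% on this scale and 9.55% in CPM, a gap that came from 6M-3, since the other 11 libraries gave 2.12% and 2.44%. Over all 12 libraries Ocln, F11r, Jam2, Gja1 and Cxadr also varied less per Sertoli marker read than in CPM, as for Gja1 with 4.56% against 7.56% and F11r with 5.76% against 9.80%. Without 6M-3 these became 4.69% against 4.48% for Gja1, the other way round, and 6.03% against 6.39% for F11r. Cldn3, Tjp1 and Jam3 varied more, with 13.4% against 11.3%, 12.8% against 8.47% and 6.92% against 6.27%, but without 6M-3 Cldn3 and Jam3 had 11.7% and 5.82% per Sertoli marker read against 11.7% and 6.11% in CPM. Clu was the largest part of the Sertoli sum, with 733.9 to 964.7 CPM where the sum was 1289 to 1679 CPM. Both scales come from the same libraries, so these figures describe the 12 samples and carry no test.

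**Figure D2:**
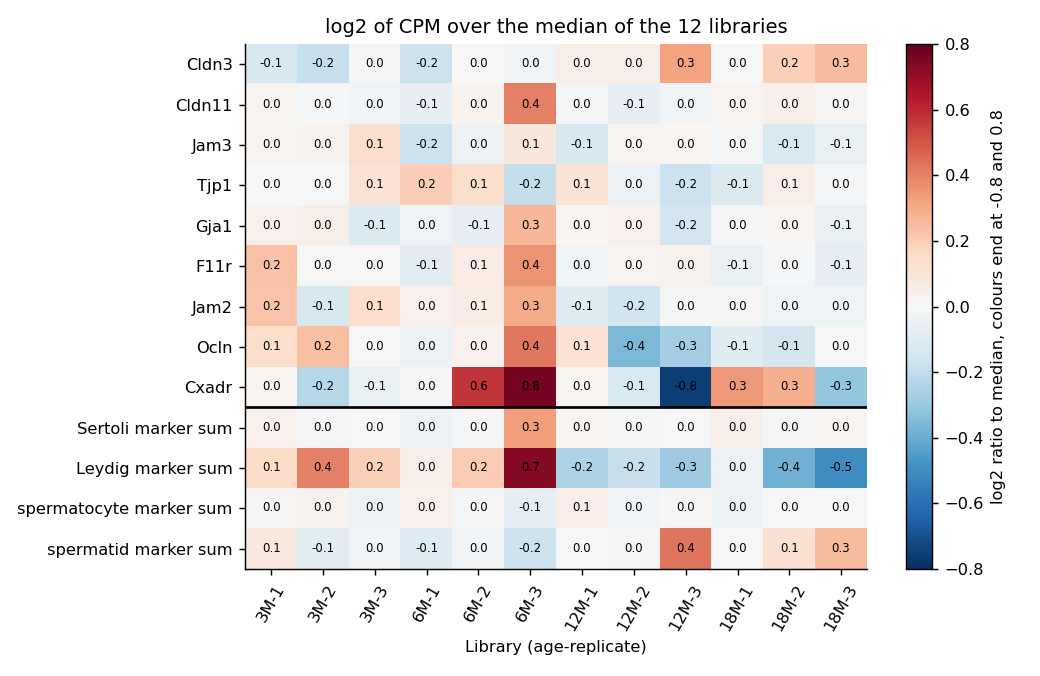
Colour and number give the log2 of a library's CPM over the median of the 12 libraries, for the 9 genes (above the line) and the summed markers of 4 cell types (below it). Library 6M-3 is high in the rows of Cldn11, Gja1, F11r, Jam2, Ocln, Cxadr and the Sertoli and Leydig sums, and low for Tjp1, while Cldn3 and the spermatid sum share their highest library, 12M-3.

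Occludin, the tetraspan protein found beside the claudins in the strand, had the second lowest RNA level per length of the 9 genes, with 232 to 424 reads per library. Ocln lies at chr13:100497247-100552619 on the minus strand. Its 3M libraries stood at 1.75, 1.92 and 1.60 FPKM, those of 6M at 1.53, 1.65 and 2.17, those of 12M at 1.73, 1.24 and 1.31, and those of 18M at 1.48, 1.42 and 1.56. The 12M and 18M libraries other than 12M-1 were below every 3M library, and the 12M range overlapped that of 3M. In FPKM all 18M libraries lay below all those of 3M, while in CPM the 2 ages met, with 5.805 as the lowest at 3M and 5.815 as the highest at 18M. The log2 change from 3M to 18M was -0.21 ± 0.10 (SE, 95% confidence interval -0.44 to 0.03), with an adjusted p of 0.403 in edgeR. Ocln had the most negative slope of the 9, a log2 change of -0.28 over 15 months (95% confidence interval -0.57 to 0.02, adjusted p of 0.314 in edgeR). Without 6M-3 the monthly slope was -0.014 on the log2 scale, against -0.018 with it.

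The junctional adhesion molecules are immunoglobulin-like proteins that bind across cells. F11r encodes JAM-A, at chr1:171437561-171464593 on the plus strand. The 3M libraries held 9.29, 7.96 and 7.89 FPKM, the 6M libraries 7.40, 8.30 and 10.4, the 12M libraries 7.68, 7.96 and 7.97, and the 18M libraries 7.58, 7.76 and 7.39. All 3 libraries of 18M lay below all 3 of 3M, and they did so also in CPM, the scale on which 10.7% of genes did. Library 3M-1 stood well above the rest of its group. The log2 change was -0.13 ± 0.082 (SE), with an adjusted p of 0.507 in edgeR, and it was -0.045 without 3M-1.

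Jam2 encodes JAM-B, known as a Sertoli cell partner of the JAM-C on spermatids, at chr16:84774123-84826375 on the plus strand. Its 3M values were 4.68, 3.69 and 4.38 FPKM, its 6M values 4.07, 4.17 and 5.01, its 12M values 3.70, 3.54 and 3.91, and its 18M values 4.03, 3.84 and 3.84. The ages overlapped, and the log2 change from 3M to 18M was -0.11 ± 0.097 (SE), with an adjusted p of 0.657 in edgeR. It rested on single 3M libraries, at -0.027 without 3M-1 and -0.20 without 3M-2. Jam3 encodes JAM-C, which spermatids need for their polarization, at chr9:27097384-27155421 on the minus strand. Its libraries stood at 15.8, 15.9 and 17.0 FPKM for 3M, 13.7, 15.01 and 16.8 for 6M, 14.03, 15.5 and 15.5 for 12M, and 15.3, 14.1 and 14.7 for 18M.

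The Jam3 means of 16.2 ± 0.648, 15.2 ± 1.58, 15.01 ± 0.848 and 14.7 ± 0.595 FPKM (SD, n = 3 per age) were lower at each step, as for 8.08% of genes, and its 18M libraries lay below those of 3M. The log2 change was -0.13 ± 0.058 (SE, 95% confidence interval -0.26 to 0.01), with an adjusted p of 0.388 in edgeR. Of the 2187 exonic bases of Jam3, 589 overlap the antisense gene Gm48796, whose reads cannot be told apart from those of Jam3 without strand. In CPM, 3 of 9 members (Cldn3, F11r and Jam3) did not overlap between 3M and 18M, against 20.4% of the genes tested. In FPKM it was 4 of 9, with Ocln added, against 19.9%.

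Tjp1, the ZO-1 scaffold that links claudins, occludin and JAMs to actin, had the most reads of the 9, with 4456 to 6223 per library. Of its 6 transcripts, 5 lie within chr7:65296165-65527841 on the minus strand, and MSTRG.18457.1, present in 3M-3 alone, reaches 65242837. Its levels were 11.7, 11.7 and 12.3 FPKM in the 3M libraries, 13.3, 12.7 and 10.3 in those of 6M, 12.3, 10.98 and 10.4 in those of 12M, and 10.7, 12.0 and 11.4 in those of 18M. The groups overlapped at every age, and the lowest library was 6M-3, the one in which most of the other members peaked. Its log2 change from 3M to 18M was -0.06 ± 0.061 (SE, 95% confidence interval -0.21 to 0.08), with an adjusted p of 0.678 in edgeR.

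Gja1 encodes connexin 43, the gap junction protein between Sertoli cells whose loss from these cells is known to stop spermatogenesis, at chr10:56377300-56390419 on the plus strand. The libraries of 3M held 11.6, 11.9 and 10.5 FPKM, those of 6M 11.1, 10.9 and 13.97, those of 12M 11.4, 11.5 and 10.1, and those of 18M 11.3, 11.4 and 10.7. All libraries but 6M-3 lay between 10.1 and 11.9 FPKM. The log2 change from 3M to 18M was -0.01 (95% confidence interval -0.16 to 0.13), with an adjusted p of 0.952 in edgeR. Without 6M-3 the monthly slope was -0.00024 on the log2 scale, against -0.0032 with it.

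Cxadr, an adhesion protein of junctions and of germ cells named for its part as a receptor for coxsackieviruses and adenoviruses, was the weakest member, with 51 to 136 reads per library. It lies at chr16:78301671-78359785 on the plus strand. Its 3M libraries held 0.382, 0.346 and 0.335 FPKM, the 6M ones 0.365, 0.474 and 0.550, the 12M ones 0.303, 0.284 and 0.160, and the 18M ones 0.490, 0.318 and 0.206. The range within 18M was wider than that of the 4 means, which lay between 0.249 and 0.463 FPKM. The log2 change from 3M to 18M was 0.22 (95% confidence interval -0.27 to 0.71, adjusted p of 0.670 in edgeR), so that a 1.64-fold increase lies within the interval at this depth. The sign was negative on the FPKM scales, at -0.02 for log2(FPKM + 1). Btg3, on the opposite strand, overlaps 418 of the 6951 exonic bases of Cxadr.

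Across the 9 genes, 8 slopes were negative and 1 was positive, while 50.6% of all genes tested had a negative slope. The median slope was -0.0065 per month on the log2 scale for the members and -0.00019 for all genes tested. From 3M to 18M, 6 of 9 estimates were negative, beside 50.4% of genes, with a median log2 change of -0.063 against -0.0019 for all genes tested. The members share libraries, 6M-3 among them, so their signs are not separate observations. Without 6M-3, Cldn11 and Cxadr also had positive slopes, no member was called, and 0.261% of 18779 genes were called.

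**Figure D3:**
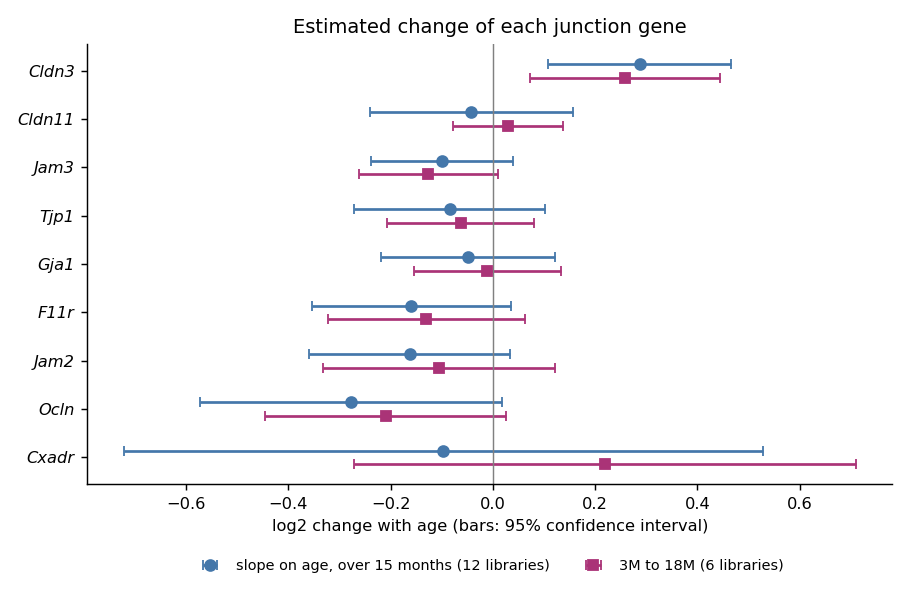
Log2 change of each gene with age (horizontal axis), as the slope over 15 months in 12 libraries (circles) and as 3M to 18M in 6 libraries (squares), with 95% confidence intervals as bars. Both intervals of Cldn3 lie above 0 before adjustment for the number of genes tested, and those of the other 8 genes include 0.

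The high values in 6M-3 were shared by 6 of the 9 genes, which had their highest CPM of the 12 libraries there, against 14.1% of all genes in the slope test. Against the higher of the other 6M libraries, 6M-3 held 1.299 times as much Cldn11, 1.31 times Ocln, 1.23 times Gja1 and 1.23 times F11r. It held 0.986 times as much Cldn3 and 0.765 times as much Tjp1. The Sertoli and Leydig marker sums of this library are given above, and their part in these values was not tested. In the 36 pairs of members, Pearson's r of log2(CPM + 1) over 12 libraries ranged from -0.52 to 0.80 with a median of 0.29, and 9 pairs were above 0.6. Over the 11 libraries without 6M-3 the range was -0.59 to 0.55, the median was 0.14, and 0 pairs were above 0.6. The points share library composition and depth, so these values are descriptions.

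The genes most alike to each member, among 15427 genes compared over the 12 libraries, differed from member to member. Cldn3 was nearest to Gsg1, a germ cell gene, with r = 0.96 and to Rpp38 with r = 0.95, and both values were 0.96 and 0.95 without 6M-3. Tjp1 was nearest to Brdt, the testis bromodomain protein of meiotic and later germ cells, with r = 0.90, and to Stk33 with r = 0.90 (0.88 and 0.87 without 6M-3). Cldn11 was nearest to Trim54 with r = 0.99 and Trank1 with r = 0.96, which dropped to 0.79 and 0.59 without 6M-3. Gja1 was nearest to Zfp46 (r = 0.92, and 0.85 without 6M-3) and Stk24 (0.91 and 0.76), and Ocln to Mum1l1 (0.90 and 0.84) and Fhl1 (0.90 and 0.85). With the same pair of values, F11r was nearest to Ndufb11 (0.93 and 0.86) and Sox12 (0.93 and 0.85), and Jam2 to Vps26b (0.92 and 0.88) and Cpq (0.88 and 0.81). Jam3 was nearest to Tmem55b (0.89 and 0.87) and Ckb (0.87 and 0.85), and Cxadr to Tmed3 (0.86 and 0.78) and Psap (0.86 and 0.79). These are the highest of many correlations and carry no test.

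At the transcript level, 17 of the 19 member transcripts were tested for a slope and 16 for 3M to 18M, and 0 passed an adjusted p of 0.05 in edgeR in either. The shares called among all transcripts were 0.0103% of 58289 and 0.108% of 54472. At an unadjusted p of 0.05 or less, 1 passed the slope, the single Cldn3 transcript, and 0 passed from 3M to 18M, where 7.15% and 5.4% of all transcripts did. Cldn3, Cldn11, F11r and Gja1 each had 1 transcript. Reads of shared exons are divided among transcripts by the assembler, and the shares below show how that went.

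Tjp1 lacked the exon printed above almost completely. Its coverage was 0 to 1.78 reads per base in the 12 libraries, where the mean of the exons on either side was 69.98 to 105 reads per base. As a share of that mean it was 0.943 ± 0.860% in 3M, 0.827 ± 0.752% in 6M, 0.768 ± 0.425% in 12M and 1.001 ± 0.181% in 18M (SD, n = 3 per age). The highest library had 1.69% and 6M-3 had 0. The exon belongs to 1 of the 6 Tjp1 transcripts, so its coverage is what the assembler gave that transcript. The other 25 inner exons of the same model had medians of 29.2 to 123 reads per base. The exon is known as the alpha exon of ZO-1, and the form without it has been described in Sertoli and endothelial cells. The transcript NM_009386, which holds this exon, took 1.80% of the Tjp1 FPKM on average. This mean rested on 6M-2 with 11.8%, since the other 11 libraries held 0 to 3.23% and averaged 0.887%. The transcript NM_001163574, which skips it, took 14.8%.

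**Figure D4:**
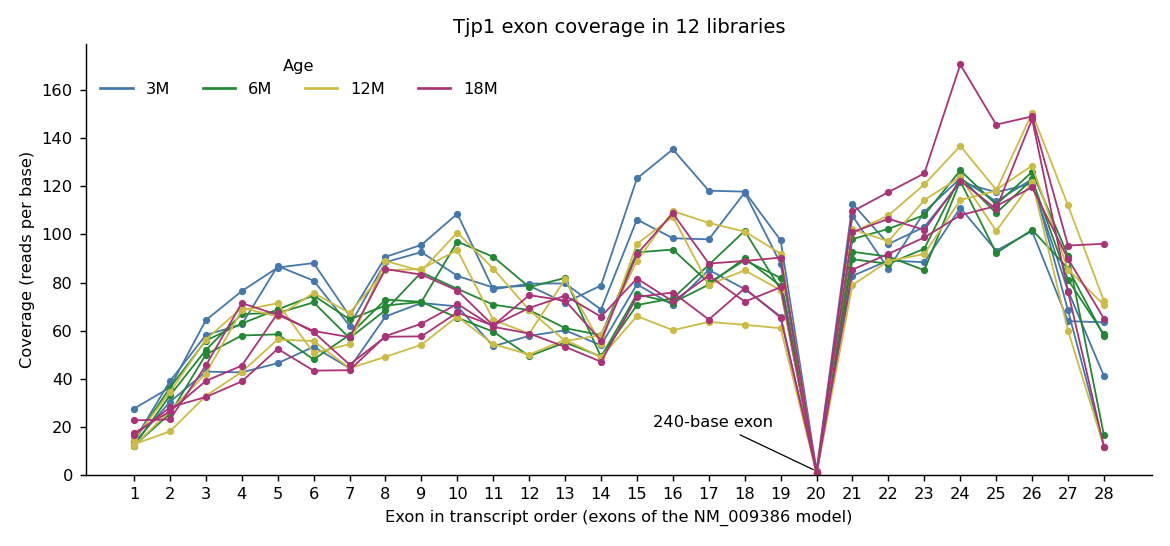
Coverage in reads per base (vertical axis) of the 28 exons of the Tjp1 model NM_009386 in transcript order (horizontal axis), 1 line per library, coloured by age. Exon 20, of 240 bases, is at 0 to 1.78 reads per base in every library, while the exons on either side average 69.98 to 105.

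The remaining reads of Tjp1 went mostly to assembled forms that begin elsewhere. MSTRG.18457.6, which starts 492 bases upstream of the annotated downstream start, took 58.9% of the FPKM on average (43.5 to 76.3%). These 492 bases lie within the span of MSTRG.18458.1, an assembled transcript on the opposite strand (chr7:65371242-65420758). Where their exons overlap, reads cannot be told apart without strand, which also limits the coverage of the downstream first exon given below. MSTRG.18457.3, which starts at the upstream exons, took 16.7% (0 to 47.6%) and was at 0 in 4 libraries. Coverage of the exon of the upstream starts was 2.03 to 7.30 reads per base, or 13.8 to 37.4% of it and the downstream first exon together. This share was 24.2 ± 3.85% at 3M and 16.7 ± 4.55% at 18M (SD, n = 3), with a two-sided exact permutation p of 0.2, where the smallest possible with 3 against 3 is 0.1.

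Jam2 was read mainly from its downstream first exon. This exon, assembled as chr16:84793231-84793730, had 11.4 to 18.3 reads per base, and the upstream one had 2.27 to 9.46. The downstream share of both was 78.7 ± 1.76% in 3M, 69.3 ± 12.3% in 6M, 72.8 ± 9.12% in 12M and 79.1 ± 7.91% in 18M (SD, n = 3), with 55.3% in 6M-3 and an exact permutation p of 1 for 3M against 18M. The last exon of Jam2 was covered at 15.3 to 30.5% of the depth of the exon before it, in every library. The assembler gave MSTRG.8288.2, the form with the downstream start, 59.9% of the FPKM (41.9 to 93.6%) and NM_023844 40.1% (6.40 to 58.1%).

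In Jam3 the annotated NM_023277 took 80.2% of the FPKM (74.5 to 84.9%), and MSTRG.20642.1, with a first exon at chr9:27122053-27122269, took 19.8%. The share of that exon among both first exons was 14.7 ± 4.22% at 3M and 18.1 ± 3.00% at 18M (SD, n = 3), with an exact permutation p of 0.4. Cxadr was divided into NM_001025192 with 60.4% (38.1 to 84.6%), NM_009988 with 32.1% (8.29 to 61.9%) and NM_001276263 with 7.497%. These shares rest on few reads, since the gene as a whole had at most 136.

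For Ocln the division was close to all or nothing. MSTRG.5661.1 held 100% of the FPKM in 6 libraries (3M-1, 6M-1, 6M-3 and all 3 of 18M) and 2.54 to 13.5% in the other 6, where NM_008756 held the rest. The annotated transcript was therefore listed at 0 in all 18M libraries and in 1 of 3 at 3M. DESeq2 gave it an adjusted p of 0.0464 between these ages, in a comparison where that tool called 3.58% of 58358 transcripts. In edgeR it did not pass the filter on low counts for 3M against 18M and was not tested there, and its slope was not called. The forms differ at the 3′ end, where the last exon spans chr13:100497247-100498915 in MSTRG.5661.1 and chr13:100497367-100498915 in NM_008756. They also differ in their first exon, printed above, whose coverage was at most 3.50 reads per base in any library, so that a change of start with age was not detectable at this depth. The sum over both forms was 1.42 to 1.56 FPKM at 18M and 1.60 to 1.92 FPKM at 3M.

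**Figure D5:**
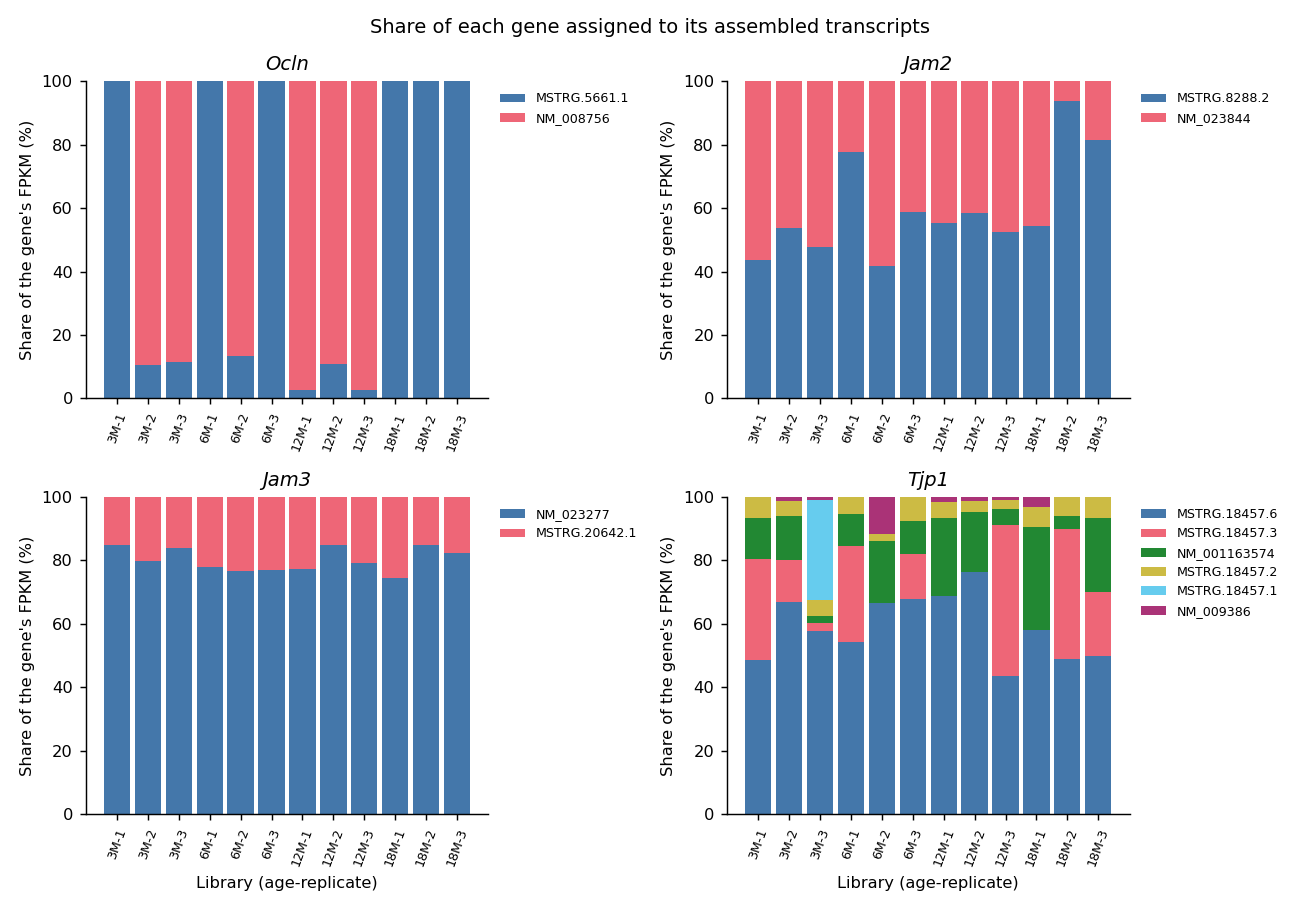
Share of the gene's FPKM in percent (vertical axis) given to each assembled transcript in the 12 libraries (horizontal axis) for Ocln, Jam2, Jam3 and Tjp1. Ocln switches between 2 transcripts from library to library within 3M and 6M, while the Jam3 shares stay between 74.5 and 84.9% for NM_023277.

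The exon shares of Tjp1 (alpha exon and upstream starts), Jam2 (first and last exon) and Jam3 were 5 comparisons of 3M with 18M, chosen after the exon coverage was seen. The Benjamini-Hochberg adjusted exact permutation p was 1 for each.

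The wider set of junction genes, 5 lists with 93 genes in the table and 90 tested for a slope, gave 0 calls in edgeR in either comparison. At an unadjusted p of 0.05 or less, 4 had a positive and 12 a negative slope (16 of 90, beside 17.5% of all genes). By list, these were 0 of 24 other tight junction genes, 6 of 20 adherens junction and ectoplasmic specialization genes (all negative), 3 of 13 desmosome and other connexin genes (all positive), 1 of 15 polarity complex genes (positive) and 6 of 18 kinase and signal genes (all negative). From 3M to 18M, 2 positive and 8 negative estimates had such a p (10 of 89, beside 13.5% of all genes). The largest positive and negative slopes named below are, in each list, those among its genes averaging at least 1 CPM.

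Among the other tight junction genes, the highest were Ybx3, a partner of ZO-1 that also binds RNA in germ cells, at 835 FPKM on average, and Sympk at 57.5 FPKM. The largest positive slope was that of Cldn13, 0.015 per month on the log2 scale (adjusted p of 0.398 in edgeR), and the largest negative one that of Cldn12, -0.040 (adjusted p of 0.497), which rested on 18M-3 with 0.202 FPKM against 1.25 to 1.89 in the other libraries. Among adherens junction genes, Nectin3, the nectin of spermatids at the ectoplasmic specialization, led with 104 FPKM and Ctnnb1, beta-catenin, had 28.4 FPKM. Actn1 had the largest positive slope at 0.0077 (adjusted p of 0.543 in edgeR).

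Lamc3, the laminin gamma-3 chain carried by spermatids, had the most negative slope of that list, -0.054 per month (SE 0.014, adjusted p of 0.112 in edgeR). It held 2.48, 2.69 and 2.38 FPKM at 3M and 2.18, 1.07 and 1.18 at 18M, so that all 18M libraries were below those of 3M. In FPKM, 19.9% of the genes tested did not overlap between these ages, in either direction. Pkp2, plakophilin-2 of the desmosome, had the largest positive slope of its list, 0.033 (SE 0.0092, adjusted p of 0.121 in edgeR), with 0.905, 0.707 and 0.854 FPKM at 3M and 1.12, 1.08 and 1.19 at 18M. DESeq2 called 4 of the 82 of these genes to which it gave an adjusted p on the slope, Lamc3, Itgb1 and Cdh2 downward and Pkp2 upward, beside its 3.45% of all genes. In the same list as Pkp2, Jup (plakoglobin) led with 22.7 FPKM and Gjc1 followed with 5.06 FPKM, and Pkp4 had the most negative slope at -0.010 (adjusted p of 0.360).

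In the polarity complexes, Scrib at 49.2 FPKM and Pard6a at 24.2 FPKM were highest, Inadl (the PATJ scaffold) had the largest positive slope at 0.0087 and Llgl1 the most negative at -0.019, with adjusted p of 0.536 and 0.346 in edgeR. In the kinase and signal list, Mtor at 28.4 FPKM and Rhoa at 21.5 FPKM were highest, Ptk2, the focal adhesion kinase, had the largest positive slope at 0.0048 and Tgfbr2 the most negative at -0.032, with adjusted p of 0.702 and 0.318 in edgeR. The Leydig markers, which include the androgen-producing enzymes, had 3 of 7 called with a negative slope in edgeR, beside 0.41% of all genes. From 3M to 18M, 1 of the 7 was called lower, beside 0.0662% of all genes. Their summed levels were 916.8 to 1095 CPM at 3M and 586.9 to 802.5 CPM at 18M. Insl3 alone held 554.0 to 619.0 CPM of that sum at 3M and 419.9 to 567.2 CPM at 18M. Of the 7, 6 had a negative slope.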

How the data were processed

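Whole testes of C57BL/6 mice were the source of the RNA, which was freed of ribosomal RNA and sequenced as paired-end, non-stranded libraries. The authors aligned reads with HISAT2 (version not given in the sources used here) to mm10 and assembled and quantified transcripts with StringTie 1.3.3b. The deposited counts are estimated counts (coverage times length over the read length of 101 bases, within 1 read for all 863604 values), already whole numbers, made by the authors. The deposited FPKM were scaled by the authors to transcript length and mapped fragments. Samples were grouped by the age in their labels, and 0 other per-sample columns were left out. The members and all lists were chosen with earlier results of these data known.

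Counts were summed per gene over transcripts that matched, lay in, shared a junction with or overlapped an annotated model, and tested in edgeR 4.0.16 (R 4.3.3; quasi-likelihood, TMM, filterByExpr, Benjamini-Hochberg over all genes), as a slope on age in months, as 3M against 18M with those 6 libraries alone, and as any difference among ages. The depth per library is given with the results, and the members held 51 (Cxadr) to 6223 (Tjp1) reads per library. Intervals at 95% use the moderated t distribution of the fit. Alternatives were DESeq2 1.42.0, limma 3.58.1 on log2(FPKM + 1) and log2(FPKM + 0.001), other scalings, filters and transcript classes, a replicate block, and leaving out each library. The fits were tested on simulated counts. Named were all members, member transcripts with 10% or more of the gene's FPKM (transcripts under that share are given where a result needs them), in each of 5 junction lists every called gene, the 2 highest in FPKM and the largest rise and fall in slope among those averaging at least 1 CPM, and for each member the 2 most alike genes. Itgb1, Cdh2 and the genes in the closing section that only an alternative called were named after their values were seen. Exon coverage was read from the authors' assemblies, and sequences from GENCODE vM21 transcripts. Exact permutation tests used scipy 1.17.1 under Python 3.11.15, with numpy 2.4.6, pandas 2.3.3 and matplotlib 3.10.9.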

Additional observations from a re-analysis of the deposited data

Results flagged for a closer look

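An assembled transcript outside the 9 sums, MSTRG.18458.1, carries the Tjp1 symbol but lies on the opposite strand at chr7:65371242-65420758, overlapping the start of the gene. It is of interest because it held signal in data that the comparisons do not use, with a median of 668 reads per library (572 to 965), or 7.02 to 9.28 FPKM, against 4456 to 6223 reads for Tjp1. Its strand comes from the splice sites of its 3 exons, since the libraries carry no strand, and the division of reads between the overlapping forms was not tested.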

How the results depend on the processing

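Counts of called genes were 0 for the members, for their transcripts and for the other junction genes in the edgeR fits with other scalings, without a filter, with other transcript classes and with all 12 libraries, and the exceptions follow. At an unadjusted p of 0.05 or less, 1 member was called on the slope, 1 from 3M to 18M and 1 for any difference among ages, 1 member transcript on the slope, and 16 and 10 other junction genes on the slope and from 3M to 18M. DESeq2 called 1 member on the slope (Cldn3), 1 member transcript from 3M to 18M (NM_008756 of Ocln), and 4 and 3 other junction genes (Lamc3 and Itgb1 in both, Cdh2 and Pkp2 on the slope, Ctnnd1 from 3M to 18M). Leaving out each library in turn gave 0 to 4 other junction genes on the slope, with 4 without 18M-1 (Lamc3, Itgb1, Il1a and Tgfbr2) and 1 without 12M-3 (Itgb1), and 0 to 1 from 3M to 18M, with Lamc3 called without 18M-1. No member was called in any of these.

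With the replicate number as a block, 0 members, 0 member transcripts and 0 other junction genes were called in any comparison. The numbers are shared labels with no stated common origin, and the deviations of same-numbered libraries correlated at -0.0625 to 0.169 over 18 pairs (median -0.0074), with 1 above 0.1, so the libraries were not treated as pairs. The block lowered the slope calls over all genes from 76 to 42.

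Of 323 single-gene values under an alternative, 311 kept their sign and side of the threshold, 1 crossed it (the Cldn3 slope with DESeq2) and 11 changed sign, all of them for values near 0 or for Tjp1 and Cxadr. For Tjp1 with annotated transcripts alone, which hold a minority of its reads, the monthly slope was 0.047 and the log2 change 0.96. The same choice made the Jam2 log2 change -1.24 and its slope -0.074, and the Ocln slope -0.17, with no call. For Cxadr, the log2 change was -0.076 with all transcript classes, -0.15 with log2(FPKM + 0.001) and -0.023 with log2(FPKM + 1). Leaving out a library, the monthly slope ranged from -0.0045 to 0.0016 for Cldn11 and from -0.016 to 0.0025 for Cxadr, and the log2 change of Gja1 from -0.061 to 0.019. The low read counts of Cxadr and Ocln and the 3 libraries per age limit what could be seen.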
